A study of Homo sapiens with 48 samples.

Results

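CYP26A1 and CYP2B6 are 2 cytochrome P450 genes of the 452 genes on a targeted RNA panel, and all 6 probes that carry their symbols, 3 per gene, were taken from the 1113 probes of the panel. The genes were chosen by measured values of these libraries: CYP26A1 was among the largest decreases of mesoderm cultures against stem cells, and CYP2B6 among those of embryoid bodies against stem cells. Every contrast with the stem cells is therefore described below without a test, as are the contrasts of CYP26A1 with mesoderm and of CYP2B6 between embryoid bodies and lineage cultures.

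All 48 libraries came from WA09, an established human embryonic stem cell line, and were measured by RASL-Seq, a targeted assay that joins 2 neighbouring DNA probes on captured messenger RNA by ligation and counts the amplified products by sequencing. Embryoid bodies (EBs), suspended clusters in which stem cells differentiate, were started at 20000 cells per well and kept in E6 medium for 7 days. In the first 24 hours, 16 libraries' EBs received CEPT, a cytoprotective cocktail (CEPT EB), and 16 received Y-27632, a compound that keeps dissociated stem cells alive (Y27 EB). The 4 control groups had 4 libraries each: hESC, stem cells without a differentiation treatment; ectoderm, given 100 nM LDN-193189 plus 2 µM A83-01, in E6 for 6 days; and mesoderm and endoderm, made with commercial induction kits in 5 days. All groups share the cell line, labelled normal in genotype, so they represent 1 genetic background. The labels do not say whether libraries of a group came from separate cultures, so p-values measure only the spread between these libraries, which may be technical. In such bulk samples, fewer cells of a type and less RNA per cell cannot be told apart.

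CYP26A1 encodes an enzyme that hydroxylates retinoic acid, the signalling form of vitamin A, and so clears it from cells. Retinoic acid itself switches the gene on through receptors that bind direct repeats in its promoter, and the enzyme shields parts of the early embryo from the signal. CYP2B6 encodes a liver enzyme that oxidises drugs such as bupropion and efavirenz, and in hepatocytes it is induced through the nuclear receptors NR1I3 (CAR) and NR1I2 (PXR).

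Each probe is named by a RefSeq transcript and a position in it. The 50 bases from that position were read from the paired GENCODE transcripts (release 29, GRCh38); whether the position marks the start of the probe pair is not given in the sources used here, so the windows show the named places and not the probes themselves. CYP26A1 lies on the plus strand of chromosome 10, from 93073475 to 93077890. The windows of probes 153 and 154 are shown because they are nearly the same place, both in coding sequence of exon 6 of 7. Capitals mark the 47 of 50 bases that they share.
CYP26A1 probe 153: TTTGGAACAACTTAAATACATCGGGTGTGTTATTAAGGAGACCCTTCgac
CYP26A1 probe 154: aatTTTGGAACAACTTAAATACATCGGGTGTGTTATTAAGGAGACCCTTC
Probe 153 starts at 93076591 and probe 154 at 93076588. They are named for different RefSeq transcripts, but both windows occur in both of those isoforms, so the pair does not separate the isoforms and is close to 1 site measured with 2 probes. The same bases also occur in AL358613.3, an annotated transcript that overlaps the gene. Probe 155 lies in the 3′ UTR in exon 7, from 93077783 to 93077832, and no other gene had a match within 5 mismatches among 206694 transcripts searched.

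CYP2B6 lies on the plus strand of chromosome 19, from 40991250 to 41018398, near its pseudogene CYP2B7P (40924219 to 40950660). Probe 1172 lies in coding sequence of exon 4 of 9, from 41006935 to 41006984. Probe 1173 spans the junction of exons 8 and 9, between 41012807 and 41016686. Both windows are shown with the pseudogene's bases opposite them, because CYP2B7P was the only other gene within 5 mismatches. Capitals mark the bases that differ.
CYP2B6 probe 1172: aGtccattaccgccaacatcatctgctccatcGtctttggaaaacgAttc
CYP2B7P opposite probe 1172: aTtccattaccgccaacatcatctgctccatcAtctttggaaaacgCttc
CYP2B6 probe 1173: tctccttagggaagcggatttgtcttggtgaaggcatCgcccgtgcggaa
CYP2B7P opposite probe 1173: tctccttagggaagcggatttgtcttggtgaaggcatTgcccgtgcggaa
Counted from 1 at the 5′ end of the window, with the CYP2B6 base first, the differences were G2T, G33A and A47C at probe 1172 and C38T at probe 1173. Reads of CYP2B6 and CYP2B7P may therefore be shared at these probes. Probe 1174 lies in the 3′ UTR in exon 9. Its window is not particular to the gene: matches within 5 mismatches were found in 294 transcripts and in 223 genes other than CYP2B6.

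The promoter of CYP26A1 is shown because the repeat through which retinoic acid receptors act can be read in it. RefSeq's table (GRCh38.p14) gives 250 bases before and 50 after the start at 93073893, on the plus strand, chr10:93073643-93073942. Capitals mark a direct repeat of receptor half-sites and the TATAAA box.
CYP26A1 promoter: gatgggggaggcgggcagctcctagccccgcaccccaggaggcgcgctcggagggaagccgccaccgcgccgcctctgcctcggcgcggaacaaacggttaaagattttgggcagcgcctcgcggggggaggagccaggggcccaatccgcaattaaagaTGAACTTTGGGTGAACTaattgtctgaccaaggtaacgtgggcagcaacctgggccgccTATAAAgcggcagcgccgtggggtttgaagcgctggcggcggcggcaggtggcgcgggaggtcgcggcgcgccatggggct
Promoters were searched on both strands for 2 half-sites (each AGGTCA or AGTTCA or GGGTCA or GGTTCA) in the same direction, spaced by 1, 2, 4 or 5 bases, and for TATAAA and GGGCGG. The CYP26A1 window held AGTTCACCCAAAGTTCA on the minus strand, a repeat spaced by 5 bases, at 90 to 74 bases before the start. That spacing was found in 31 of 35116 promoters, or 0.0883%. TATAAA stood 31 to 26 bases before the start and occurred in 11.5% of promoters. The table's other start of CYP26A1, at 93073475, has a window from 93073225 to 93073524 that held none of these motifs. The window of CYP2B6 held TATAAA alone of these motifs, on the minus strand.

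The control labels were checked against marker lists. The summed CPM (counts per 1e6 reads, scaled by TMM) of 5 endoderm genes was 10100 to 11335 in endoderm, with SOX17 at 2612 and GATA6 at 4065, and at most 374 in any other control library. The summed CPM of 6 ectoderm genes was 7649 to 8261 in ectoderm and at most 2893 in the other controls. Of these genes only OTX2 was higher in another control group, at 1466 in endoderm and 434 in ectoderm. The 5 mesoderm genes summed to 3260 to 3928 in mesoderm and at most 269.7 in the other controls. That sum was nearly all T, CDX2 and HAND1 (means of 1829, 1174 and 461). KDR was lower in mesoderm (23.2) than in hESC (254), ectoderm (96.4) and endoderm (60.7). PDGFRA was at 14.9 in mesoderm and 51.2 in endoderm. Pluripotency genes summed to 17620 to 19141 in hESC, 16270 to 17524 in endoderm and 13122 to 15164 in ectoderm, so this sum barely set hESC apart from endoderm. TDGF1 was at 8082 in endoderm and 2487 in hESC, and LIN28A at 7378 and 5145. In ectoderm SOX2 was at 6501, against 1144 in hESC, and LIN28A at 6379. The rest of the list was lower than hESC in each of these groups, with POU5F1 at 8.63 in hESC and 0 in endoderm. The hepatocyte markers on the panel, ALB and AFP, summed to at most 6.60 in every control library. Y27 EB replicate 15 stood apart: it had the fewest reads (379810, against a median of 3583316) and a mesoderm sum of 4068.

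CYP26A1 was highest in endoderm and close to absent in mesoderm, with hESC, the 2 EB arms and ectoderm between them. At probe 154, which had the most reads, the 4 endoderm libraries were at 13266, 13188, 11641 and 13674 CPM. The hESC libraries were at 154, 172, 164 and 176 CPM. The ectoderm libraries were at 8.60, 8.52, 7.40 and 21.7 CPM. The endoderm values stood far above all others and ectoderm replicate 4 stood above its 3 fellows. In mesoderm the reads of probe 154 were 2, 0, 1 and 0, and probes 153 and 155 had 0 reads in all 4 libraries. A count of 0 allows up to 3 reads, which is 0.880 to 1.32 CPM in these libraries; floors and intervals cover counting error only.

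In CEPT EB, probe 154 had a lowest value of 0, a median of 40.2 and a highest of 98.2 CPM. In Y27 EB it had a lowest value of 2.10, a median of 33.8 and a highest of 69.6 CPM. All EB libraries lay below every hESC library, the 2 arms overlapped almost entirely, and both overlapped ectoderm. Probes 153 and 155 gave the same order of groups: endoderm, hESC, CEPT EB, Y27 EB, ectoderm, mesoderm. In that order, neighbours did not overlap from endoderm to hESC, from hESC to CEPT EB and from ectoderm to mesoderm, at any of the 3 probes. The last of these lay within counting error at probe 155. There ectoderm replicates 1 and 2 had 2 reads each (0.782 and 0.655 CPM), under the 0.880 to 1.32 CPM allowed for 0 reads in mesoderm. How many panel probes separate these groups in the same way was not counted.

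**Figure D1:**
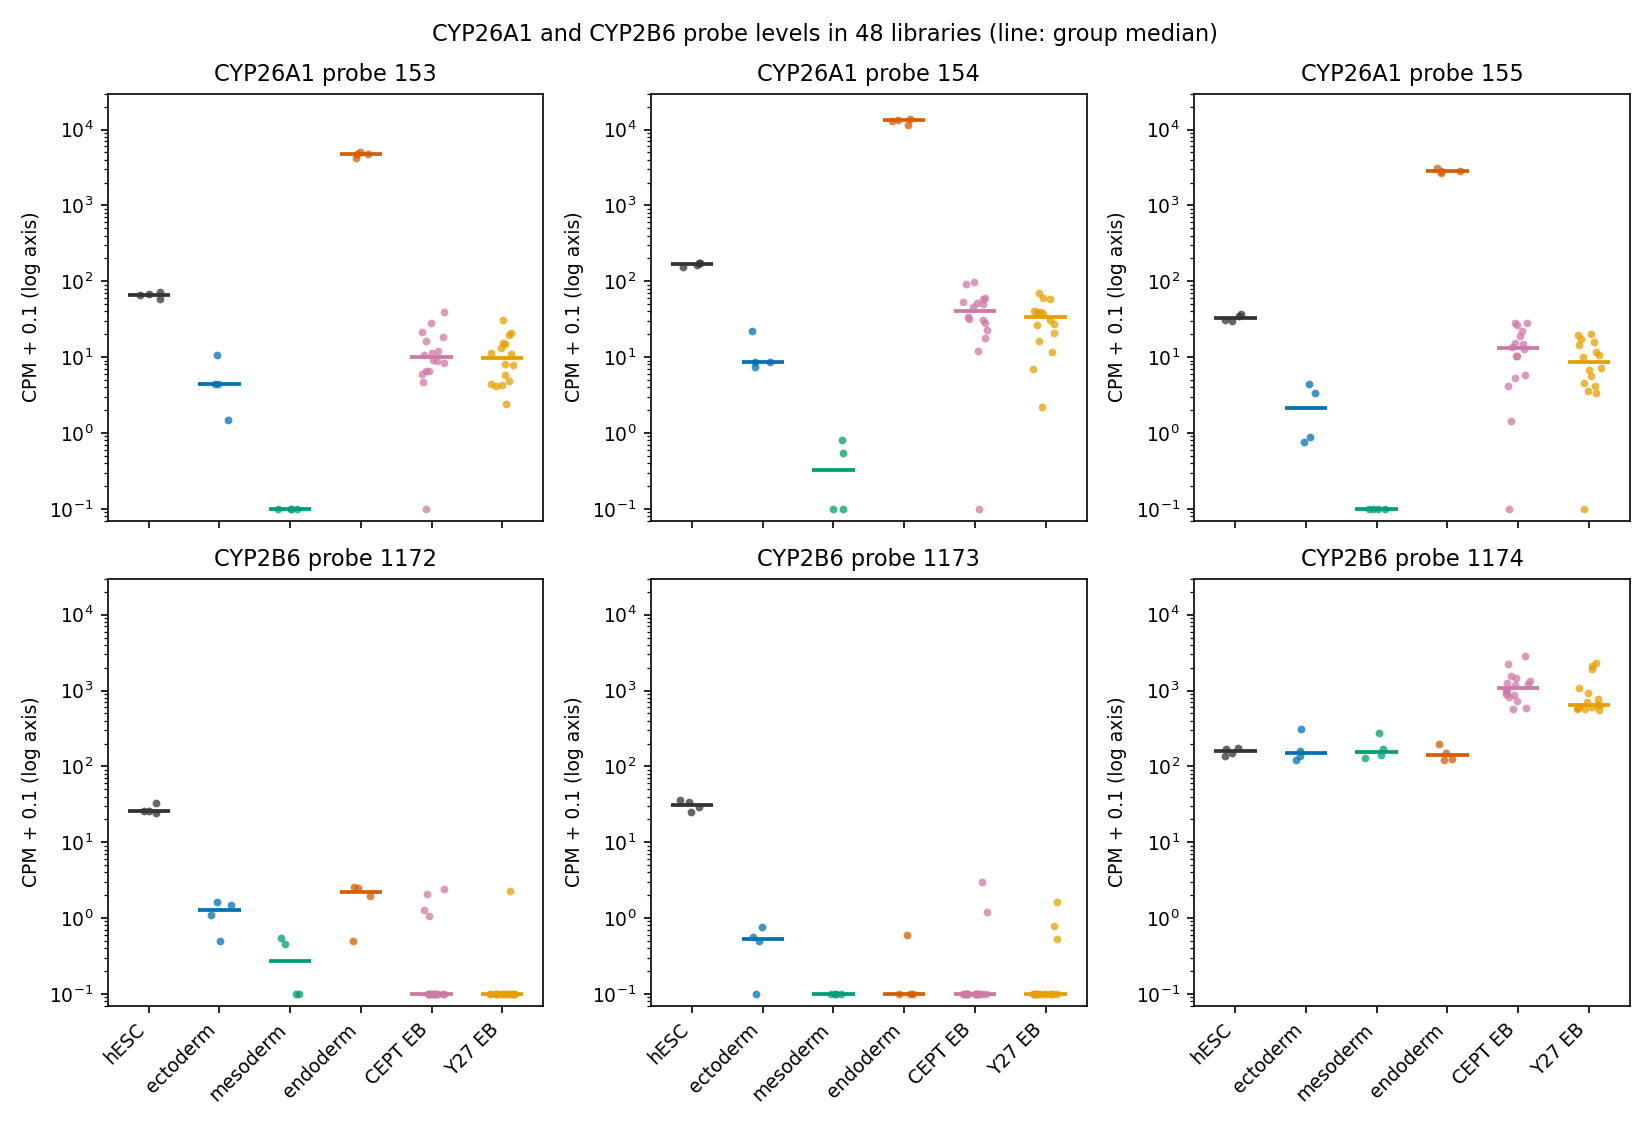
CPM plus 0.1 on a log axis for the 6 probes in the 48 libraries by group; points are libraries and lines are group medians. CYP26A1 probes share the peak in endoderm (mean 12942 CPM at probe 154), whereas CYP2B6 probe 1174 is highest in the EB arms and probes 1172 and 1173 are highest in hESC.

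As a description of the contrast that chose the gene, probe 154 had a mean of 167 ± 9.93 CPM in hESC (SD, n = 4). Its summed reads per effective library in hESC were 658 times those in mesoderm, with an exact 95% counting interval of 225 to 3193 on 3 mesoderm reads. At probe 153, hESC was at least 63.5-fold higher than mesoderm, against 3 reads in each mesoderm library, and at probe 155 at least 31.5-fold higher. The mean in endoderm was 71.2, 77.7 and 87.7 times that in hESC at probes 153, 154 and 155. CYP26A1 reads made up 1.26% to 1.43% of all panel reads in endoderm. Probe 154 ranked 25th of the 1113 probes there.

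Between ectoderm and endoderm, where 79.7% of 903 probes passed the threshold of an adjusted p under 0.05 and 39.9% passed as lower (edgeR's quasi-likelihood test, adjusted by Benjamini and Hochberg's method over all probes), all 3 CYP26A1 probes were lower in ectoderm. The log2 fold change was -9.61 ± 0.28 (SE, n = 4 and 4, adjusted p = 2.6e-13 by edgeR) at probe 153. It was -9.96 ± 0.27 at probe 154 and -10.17 ± 0.25 at probe 155. No library of one group came near the other. The share called in that direction was large, and of the probes tested only 3.65% differed by as much as probe 154.

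The EB arms also lay below endoderm at all 3 probes, where 35.5% (CEPT EB) and 34.4% (Y27 EB) of 1016 probes were called lower. The log2 fold changes against endoderm were -8.59, -8.33 and -7.82 in CEPT EB and -8.95, -8.78 and -8.37 in Y27 EB, in probe order. The highest of the 6 adjusted p-values by edgeR was 6.6e-18. Both arms were compared with the same endoderm libraries.

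Against ectoderm, CYP26A1 rose in CEPT EB at probes 154 and 155, where 37.6% of probes were called higher. The log2 fold change was 1.79 ± 0.61 (SE, adjusted p = 0.0083 by edgeR) at probe 154, and 2.50 ± 0.81 (adjusted p = 0.0059 by edgeR) at probe 155. At probe 153 it was 1.20 ± 0.62 with an edgeR adjusted p of 0.080, which missed the threshold. In Y27 EB, where 36.9% were called higher, the values were 1.34 ± 0.60 at probe 154 (adjusted p = 0.043 by edgeR) and 1.95 ± 0.81 at probe 155 (adjusted p = 0.031 by edgeR). At probe 153 the Y27 EB value was 0.84 ± 0.61 (adjusted p = 0.22 by edgeR).

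The calls against ectoderm were not firm in either arm. With the replicate numbers as a block, CEPT EB missed the threshold at probe 154 (1.43, adjusted p = 0.059 by edgeR) and at probe 155 (2.13, adjusted p = 0.056 by edgeR), and so did Y27 EB (0.98 and 1.56, adjusted p = 0.19 and 0.16 by edgeR). Of 29 alternatives at probe 154, 28 kept the call in CEPT EB and 17 in Y27 EB. Without Y27 EB replicate 15, the shallow library and the highest of its arm at probe 154 (69.6 CPM), the value at probe 154 was 1.24 with an edgeR adjusted p of 0.057. Ectoderm replicate 4 held 71 of the 135 ectoderm reads of probe 154, and its endoderm marker sum was 19.9 CPM against 5.08, 8.52 and 5.55 in the other ectoderm libraries; the part of these markers in its CYP26A1 level was not tested. Without it, the value of probe 153 in CEPT EB was 1.84 (adjusted p = 0.031 by edgeR). That value also passed without CEPT EB replicate 2 (1.35), replicate 4 (1.39) or replicate 13 (1.35).

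The first-day treatment made no difference to CYP26A1 that these libraries could resolve. Of 867 probes tested between CEPT EB and Y27 EB, 23.6% were called, and none of the 4 member probes tested was among them. An unadjusted p under 0.05 was found for 297 probes. The log2 fold changes of CEPT EB over Y27 EB were 0.27 ± 0.40 at probe 153 (95% interval -0.52 to 1.05), 0.41 ± 0.39 at probe 154 (-0.35 to 1.17) and 0.50 ± 0.46 at probe 155 (-0.40 to 1.41). The edgeR adjusted p-values were 0.69, 0.51 and 0.50. The intervals reach from a modest decrease to more than a doubling, so they do not show that the arms were alike.

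**Figure D2:**
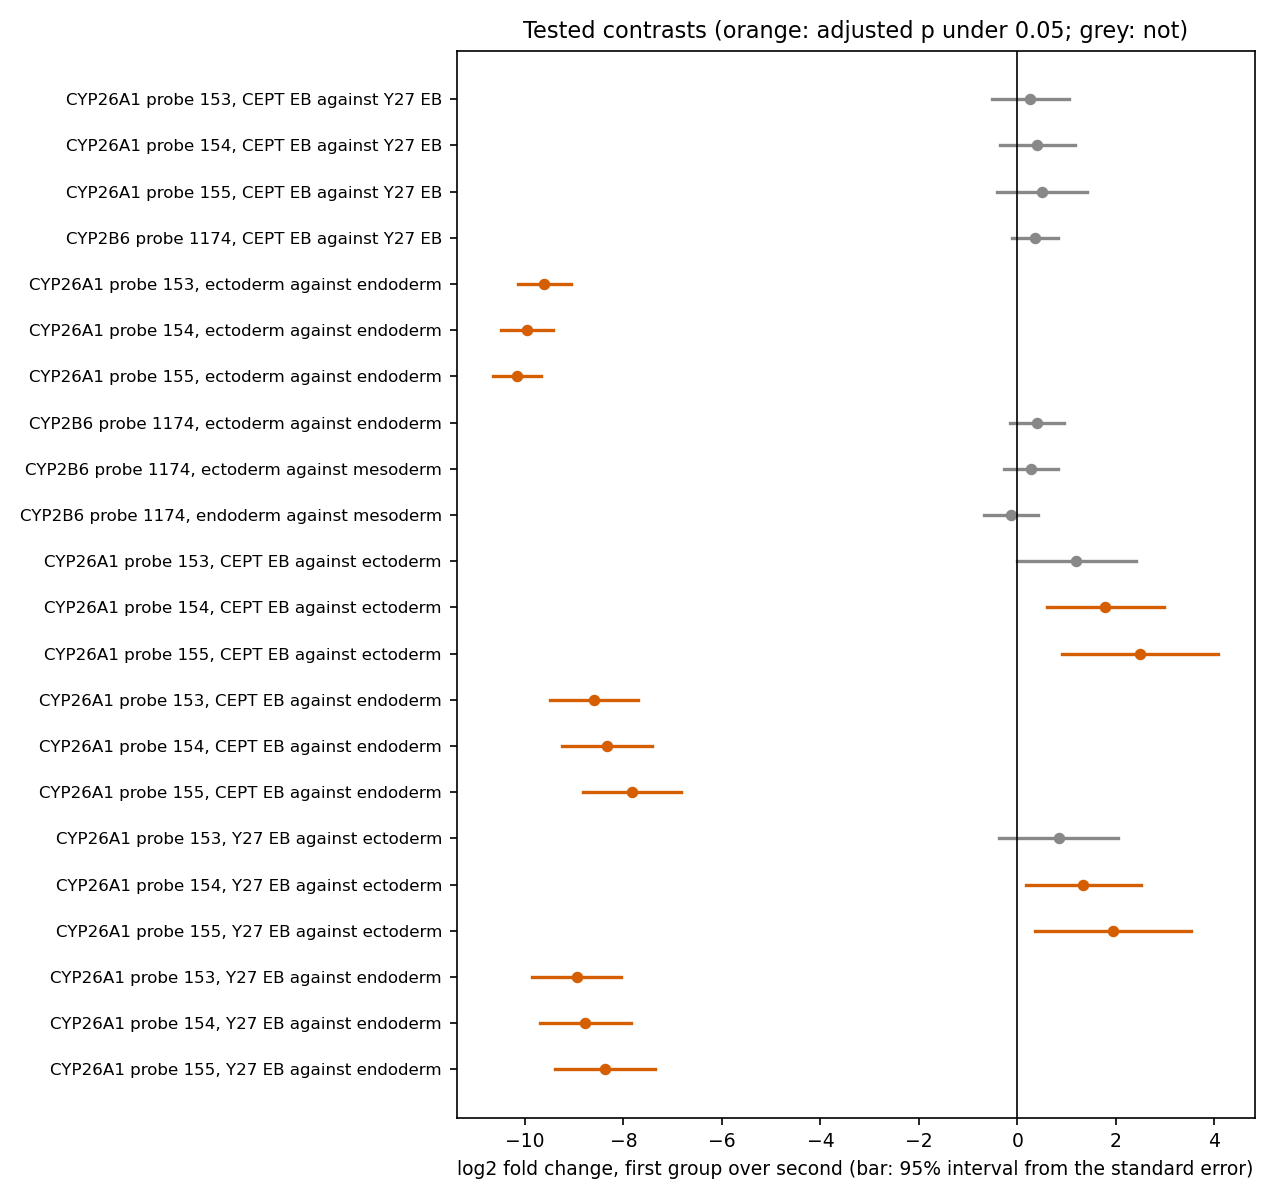
Log2 fold changes (first group over second) of the member probes in the tested contrasts, with 95% intervals from the standard errors; probes 1172 and 1173 are left out because they had few reads outside hESC. CYP26A1 lies near -10 for ectoderm against endoderm, and all intervals of CEPT EB against Y27 EB cross 0.

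CYP2B6 gave 2 patterns that depended on the probe. At the coding probes 1172 and 1173 it was seen in hESC and hardly elsewhere. The hESC libraries were at 25.6, 33.1, 25.8 and 24.1 CPM at probe 1172. They were at 33.7, 28.9, 35.9 and 24.6 CPM at probe 1173. These 4 libraries were alike at both probes and did not overlap any other group. Outside hESC, probe 1172 had 1, 3, 3 and 5 reads in ectoderm and 1, 6, 5 and 5 in endoderm. In mesoderm it had 1, 0, 1 and 0 reads. It had 0 reads in 12 of 16 CEPT EB libraries and in 15 of 16 Y27 EB libraries. Probe 1173 had at most 2 reads in any lineage library, 0 in all of mesoderm, and 0 in 14 of 16 CEPT EB and 13 of 16 Y27 EB libraries.

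Described per summed read, hESC was 71.4 times CEPT EB at probe 1172 (exact 95% counting interval 45.7 to 118, on 21 EB reads) and 119 times at probe 1173 (69.4 to 220, on 14 reads). Against Y27 EB, the ratio at probe 1173 was 200.4 (113 to 393, on 12 reads); at probe 1172 the 16 libraries held 1 read, in replicate 15. Against ectoderm it was 25.4 (14.3 to 49.8) at probe 1172, and against endoderm 15.9 (9.69 to 27.7).

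Between lineages, probes 1172 and 1173 passed the filter on low counts only through hESC, so their values are given as reads with no test. At probe 1172 ectoderm held 12 reads in all and mesoderm 2, a ratio of 6.42 per effective library (exact 95% counting interval 1.43 to 59.1). Endoderm held 17 reads, a ratio of 10.3 to mesoderm (2.44 to 91.8). Ectoderm and endoderm overlapped at probe 1172, and at probe 1173 ectoderm held 4 reads, endoderm 1 and mesoderm 0.

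Probe 1174 had a different pattern. The hESC libraries were at 169, 152, 137 and 175 CPM. The ectoderm libraries were at 160, 137, 314 and 121 CPM, mesoderm at 168, 141, 273 and 128, and endoderm at 152, 127, 194 and 123. These 4 groups overlapped, and replicate 3 was the highest in each lineage. CEPT EB had a lowest value of 575, a median of 1080 and a highest of 2852 CPM, and Y27 EB 548, 640 and 2306. Every EB library lay above every control library, and how many other panel probes did so was not counted. The mean of CEPT EB was 7.74 times and that of Y27 EB 5.99 times the hESC mean, whereas the other CYP2B6 probes went the opposite way.

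The ratio of reads at probe 1174 to those at probe 1173 was 5.19 in hESC, against 4486 in CEPT EB and 5606 in the other arm. The probes thus did not move together, and no mean over the CYP2B6 probes describes the gene. Whether the reads of probe 1174 came from CYP2B6 was not tested.

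**Figure D3:**
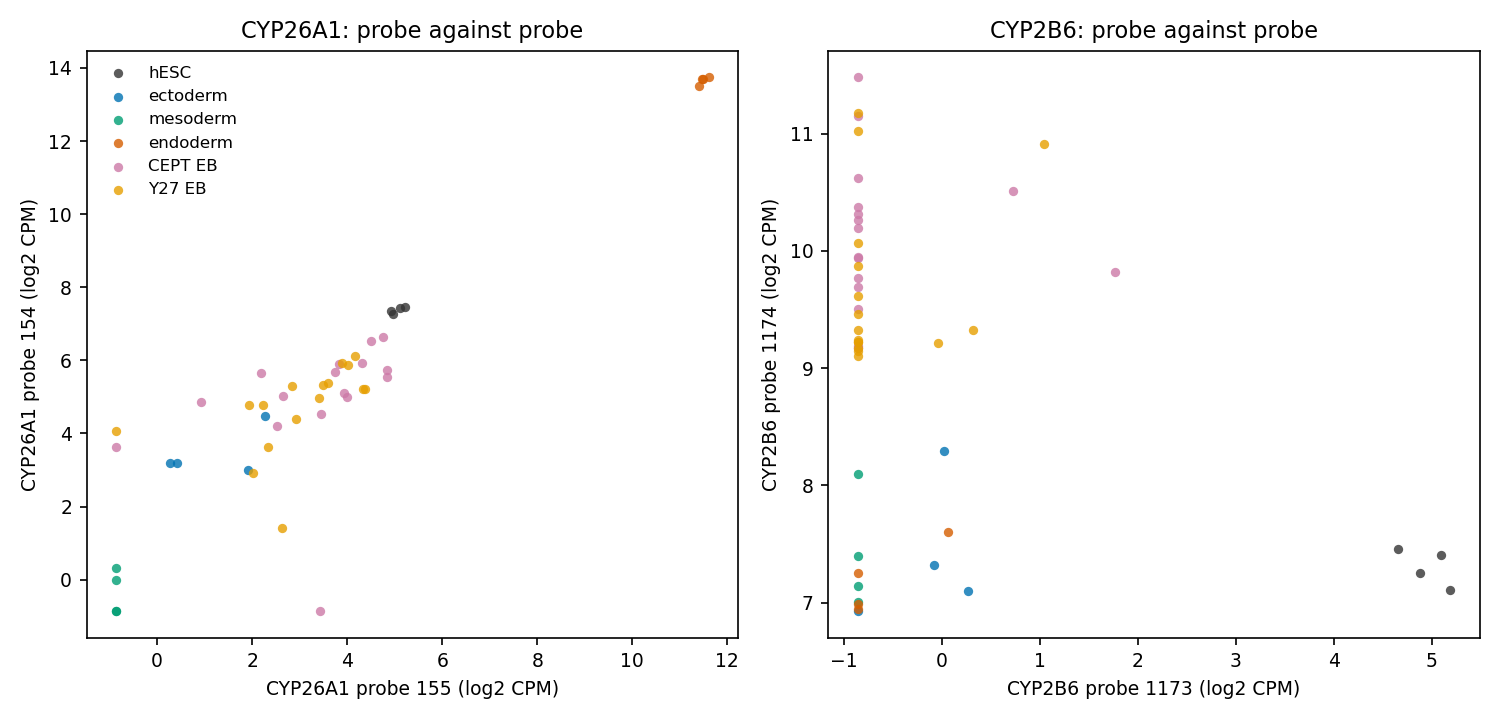
Log2 CPM of probe 154 against probe 155 (left) and of probe 1174 against probe 1173 (right), 1 point per library, coloured by group. CYP26A1 probes order the groups alike, whereas the hESC libraries, highest at probe 1173, are low at probe 1174 and the EB libraries are the reverse.

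No comparison of lineages or arms passed at probe 1174, where 80.2% of probes were called for ectoderm against mesoderm and 76.2% for endoderm against mesoderm. The log2 fold changes were 0.41 ± 0.28 for ectoderm against endoderm (adjusted p = 0.19 by edgeR), 0.28 ± 0.28 for ectoderm against mesoderm (0.37) and -0.13 ± 0.28 for endoderm against mesoderm (0.67). CEPT EB over Y27 EB was 0.35 ± 0.24 (95% interval -0.11 to 0.82, adjusted p = 0.33 by edgeR). Probes 1172 and 1173 had too few EB reads to pass the filter of that comparison.

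The panel held 3 other genes of the retinoid list, CDX2, NR2F1 and NR2F2, all known to respond to retinoic acid. None of their 2 probes that passed the filter, 1 each of 2 genes, was called between the arms, where 23.6% of all probes were (median log2 fold change -0.16, against -0.04 over all probes). CDX2, a transcription factor of the posterior embryo, was high where CYP26A1 was lowest: its probe 108 had a mean of 826 ± 53.1 CPM in mesoderm (SD, n = 4) and at most 0.492 CPM in any other control library. The nuclear receptor NR2F2 was at 666 ± 54.9 CPM in ectoderm and 16.7 ± 2.54 in endoderm (SD, n = 4 each), which differed by 5.43 ± 0.14 on the log2 scale (adjusted p = 2.6e-17 by edgeR). NR2F1, a close relative, was higher in ectoderm by 4.21 ± 0.36 (adjusted p = 1.3e-08 by edgeR). NR2F1 and NR2F2 thus lay opposite to CYP26A1 in that comparison. The 3 CDX2 probes had at most 1 read in any ectoderm library and at most 3 in any endoderm library. These are too few for a call either way, so no result is drawn from CDX2 in ectoderm against endoderm.

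Of the drug metabolism list the panel held GSTP1, NQO1, CEBPA, ALB and AFP besides CYP2B6. None of the 6 probes tested, of 2 genes, was called between the arms, where 23.6% of all probes were (median 0.06, against -0.04 over all probes). All 7 tested in ectoderm against endoderm, of 3 genes, were lower in ectoderm, where 39.9% of all probes were (median -1.13, against -0.03 over all probes). NQO1, a quinone reductase, was at 343 ± 42.5 CPM in endoderm and 28.1 ± 4.26 in ectoderm at probe 940 (SD, n = 4 each). The log2 fold change was -3.50 ± 0.14 with an edgeR adjusted p of 1.5e-14. GSTP1, which conjugates glutathione, differed less, by -0.77 to -1.13 over its 3 probes.

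Likeness was measured as Pearson's r over the 6 group means of log2 CPM among 329 genes, as a description. The genes most like CYP26A1 were PTGDS (0.958), LEFTY1 (0.958), NODAL (0.953), ETNPPL (0.920) and HHEX (0.919). PTGDS makes prostaglandin D, LEFTY1 and NODAL are a secreted inhibitor and a ligand of the same signal, and HHEX is a transcription factor of early endoderm. Over the mean of all its probes, CYP2B6 was most like POU5F1 (0.974), DPPA4 (0.972), JARID2 (0.967), SEPHS1 (0.947) and DNMT3B (0.913). Because its probes disagreed, the ranking was repeated by probe after the values were seen. Probes 1172 and 1173 were most like DNMT3B (0.964), LCK (0.962) and JARID2 (0.938), and probe 1174 like RANBP3L (0.998), WNT1 (0.998) and S100B (0.998). The 6 points share libraries within groups, and each r rests mainly on the groups that stand apart: endoderm for CYP26A1, hESC for probes 1172 and 1173, and the EB arms for probe 1174.

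**Figure D4:**
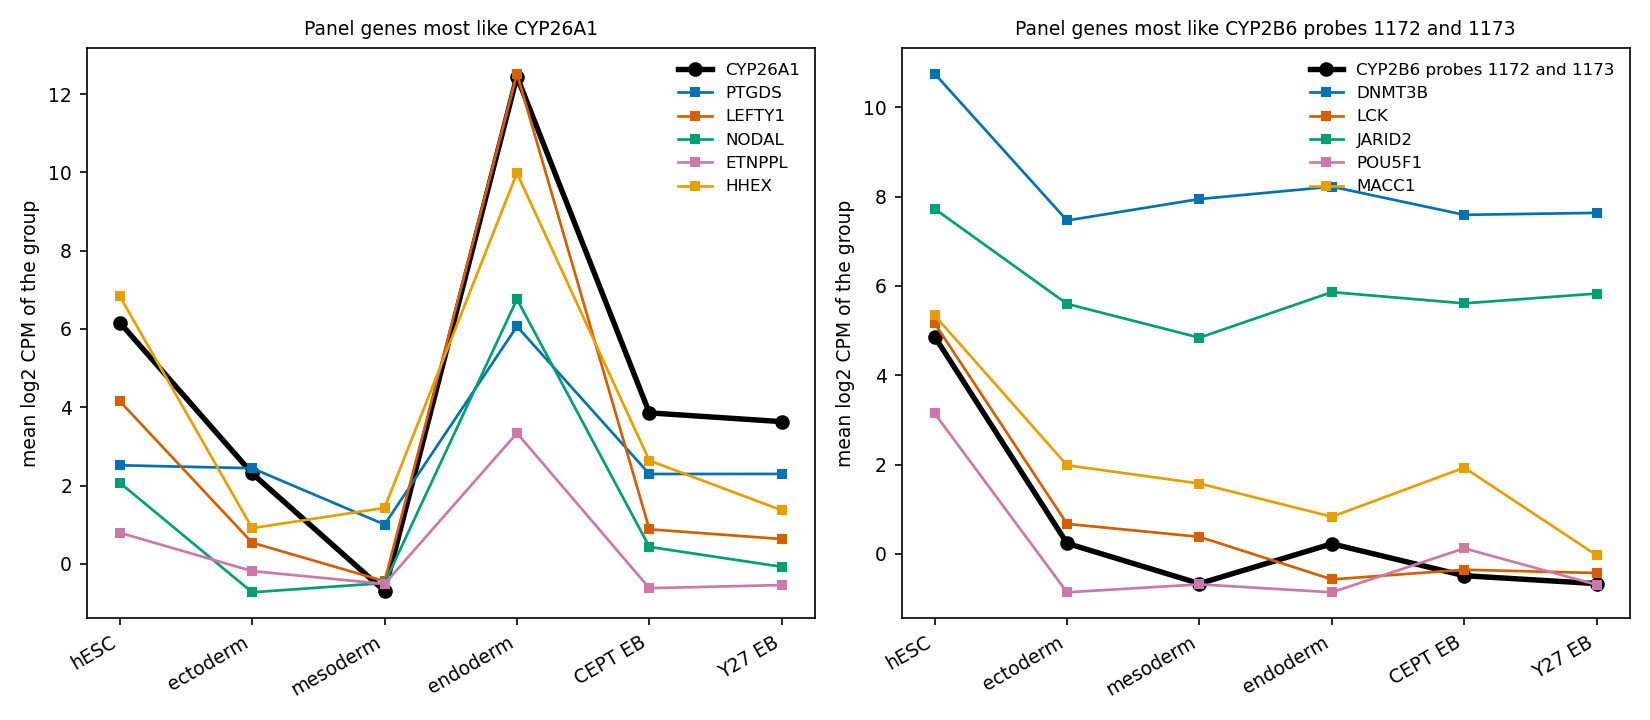
Mean log2 CPM in the 6 groups for CYP26A1 and the 5 genes most like it (left), and for CYP2B6 probes 1172 and 1173 and the 5 genes most like them (right). The genes on the left share a peak in endoderm and those on the right a peak in hESC; heights are not comparable between genes.

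Among EB libraries CYP26A1 was compared with other measures in each arm, with 30 relations computed in all and p-values adjusted over them. The level used was the mean log2 CPM of its 3 probes. With the retinoid genes, no relation passed: r was -0.06 with CDX2, -0.36 with NR2F1 and 0.06 with NR2F2 in CEPT EB, with adjusted permutation p-values of 0.88, 0.25 and 0.88. In Y27 EB the values were 0.44, -0.45 and -0.34, with adjusted permutation p-values of 0.16, 0.16 and 0.27. Spearman's coefficient was -0.02, -0.46 and -0.11 in CEPT EB and 0.49, -0.47 and -0.38 in Y27 EB, with adjusted permutation p-values from 0.16 to 0.94. Without the 2 libraries farthest from the median, r was -0.40, -0.55 and -0.30 in CEPT EB and 0.48, -0.40 and -0.37 in Y27 EB. CDX2 was near the floor in both arms. In CEPT EB its probes 106 and 107 had 0 reads in every library and probe 108 had at most 7. In Y27 EB its highest value at probe 108, 23.9 CPM on 11 reads, was in the shallow replicate 15, which was not left out. The relations with CDX2 therefore cannot show whether the 2 genes vary together.

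With the pluripotency markers, a relation looked at after the values were seen, CYP26A1 rose in CEPT EB (n = 16, r = 0.78, adjusted permutation p = 0.0034; Spearman's coefficient = 0.84, adjusted permutation p = 0.0013). Without replicates 4 and 13, the 2 farthest from the median, r was 0.69. In Y27 EB the relation did not pass (r = 0.54, adjusted permutation p = 0.11; Spearman's coefficient = 0.54, adjusted permutation p = 0.12; r = 0.42 without replicates 2 and 9). The shallow replicate 15 was not left out of these Y27 EB values. It was the highest of its arm at probes 153 and 154, but among the lowest in the pluripotency markers. Replicate 15 therefore lay against a rise, and r without it was not computed. The difference between the arms was not tested, so the relation is not shown to be particular to CEPT EB. Probe 154 alone, also tried after the values of the 3-probe mean were known, gave r = 0.79 in CEPT EB (adjusted permutation p = 6.0e-04; 0.84 without replicates 4 and 13) and a Spearman's coefficient of 0.91 (adjusted permutation p = 3.0e-04, the smallest that these permutations can give over this family). In Y27 EB it gave r = 0.60 (adjusted permutation p = 0.072) and a Spearman's coefficient of 0.59 (adjusted permutation p = 0.088). CYP26A1 also followed the endoderm markers in CEPT EB (r = 0.65, adjusted permutation p = 0.042; Spearman's coefficient = 0.50, adjusted permutation p = 0.16), where r was 0.27 without replicates 4 and 13. For probe 154 alone r was 0.78 (adjusted permutation p = 0.0037), the Spearman's coefficient 0.64 (adjusted permutation p = 0.055), and r 0.51 without those 2 libraries, so how far the relation rests on them depended on the probes used. In replicate 13, probe 154 and all endoderm markers were at 0 reads, but probes 153 and 155 had 9 and 20 reads. In replicate 4, probes 153 and 155 had 0 reads and probe 154 had 43. The relation with the endoderm markers did not pass in Y27 EB (r = 0.45, adjusted permutation p = 0.16). Spearman's coefficient was 0.46 there (adjusted permutation p = 0.16), and r was 0.52 for probe 154 alone (adjusted permutation p = 0.12). With library total, r was 0.49 in CEPT EB (adjusted permutation p = 0.14) and -0.43 in Y27 EB (adjusted permutation p = 0.19). Spearman's coefficient was 0.44 in CEPT EB (adjusted permutation p = 0.16) and -0.26 in Y27 EB (adjusted permutation p = 0.41). The Y27 EB values include the shallow replicate 15.

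Of the CYP26A1 probes, only 154 and 155 were compared with each other within an arm. Their relation passed by Spearman's coefficient in both arms and by Pearson's r in neither. Probes 154 and 155 had r = 0.32 in CEPT EB (n = 16, adjusted permutation p = 0.25; 0.59 without replicates 4 and 13) and a Spearman's coefficient of 0.67 (adjusted permutation p = 0.043). In Y27 EB r was 0.50 (adjusted permutation p = 0.14; 0.70 without replicates 9 and 14) and the Spearman's coefficient 0.72 (adjusted permutation p = 0.022). Probe 154 fell as CYP2B6 probe 1174 rose in CEPT EB (r = -0.64, adjusted permutation p = 0.042; Spearman's coefficient -0.45, adjusted permutation p = 0.16), but r was -0.26 without replicates 4 and 13, so that relation rests on those libraries. With the 3-probe mean, r with probe 1174 was -0.53 in CEPT EB (adjusted permutation p = 0.12) and 0.15 in Y27 EB (adjusted permutation p = 0.66). Spearman's coefficient was -0.44 in CEPT EB (adjusted permutation p = 0.16) and -0.26 in Y27 EB (adjusted permutation p = 0.41). The shallow replicate 15 was the highest Y27 EB library at probe 1174 (2306 CPM), so no difference in sign between the arms is drawn.

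**Figure D5:**
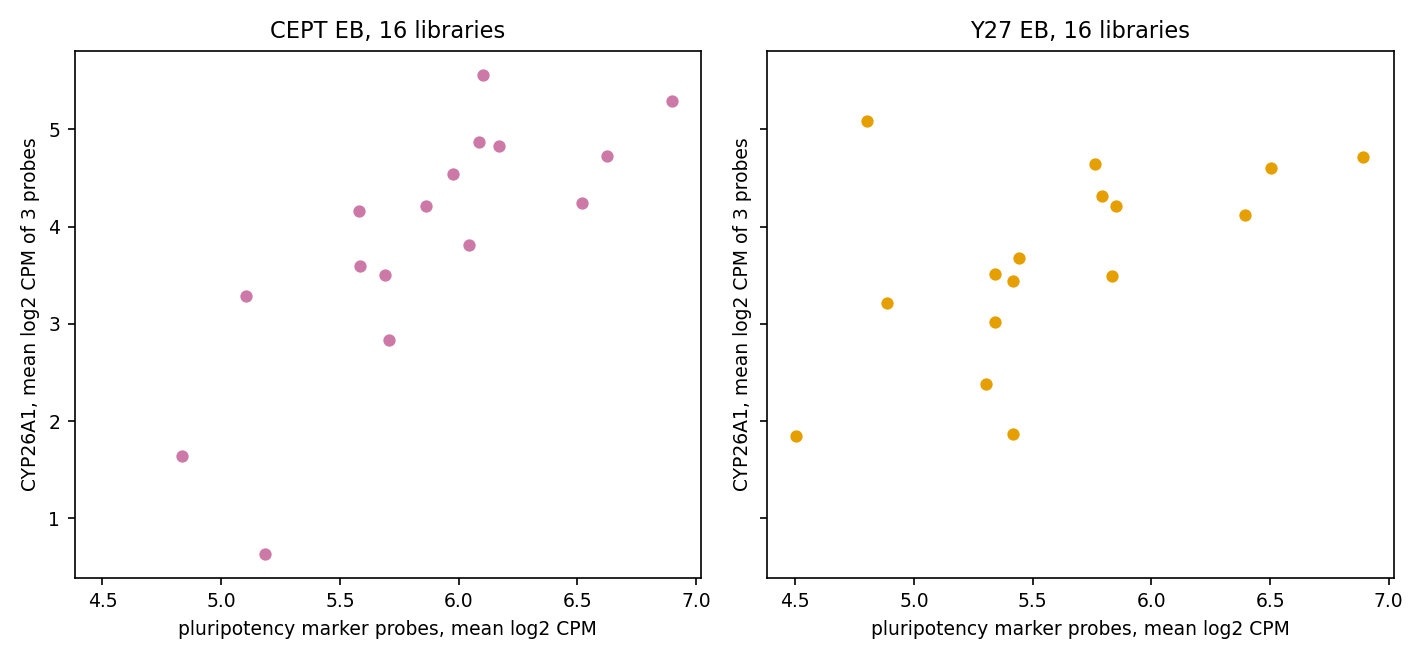
CYP26A1 (mean log2 CPM of its 3 probes) against the mean log2 CPM of the pluripotency marker probes in the 16 libraries of each EB arm, 1 point per library. The points rise together in CEPT EB (r = 0.78), and in Y27 EB replicate 15 lies at the upper left (r = 0.54).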

How the data were processed

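RNA of 48 libraries was measured by RASL-Seq. The authors used a custom aligner per the labels, and the deposited values are raw counts per probe, not normalized; hg38 and DESeq2 are named in the submitters' processing notes, and the mismatches the aligner allowed are not given in the sources used here. A merged table repeated the 48 sample tables, and 16 more columns, tied to no sample by the labels, were left out. Library totals ranged from 379810 to 5577868 reads. No 2 libraries of a group agreed within counting noise (chi-square over degrees of freedom at least 4.93).

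Counts were filtered with filterByExpr, scaled by TMM and tested with edgeR 4.0.16 (R 4.3.3, robust quasi-likelihood test, two-sided, Benjamini-Hochberg adjustment over all probes, threshold 0.05), on the 32 EB libraries, the 16 control libraries or all 48. Scripts were tested on simulated data. The sequence at probe 1174 is not reported here. Standard errors came from the log2 fold change and F. Log2 CPM had a prior count of 2. Correlations used 100000 permutations, two-sided. Named were all member probes, list genes on the panel and the 5 genes most alike among those spanning 2 log2 units. The members, lists and tests were chosen with earlier results of these data known. The correlations were fixed on the mean of the CYP26A1 probes; probe 154 alone and the marker, depth and probe relations were added after seeing the data. Alternatives were other scalings, filters, DESeq2 1.42.0, a replicate block, other sample sets, probes summed per gene and each library left out. Figures were drawn with matplotlib 3.10.9.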

Additional observations from a re-analysis of the deposited data

Results flagged for a closer look

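CYP26A1 probe 154 in ectoderm replicate 4 had a log2 CPM of 4.48, far from the other ectoderm libraries at 2.99, 3.18 and 3.19. It was the only one flagged of 14 combinations of probe and control group examined, and chance flags about 1 in 20 groups. The endoderm marker sum of that library was 19.9 CPM against 5.08 to 8.52 in its fellows; their part in the value was not tested.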

How the results depend on the processing

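Ectoderm against endoderm and each EB arm against endoderm kept direction and call for all CYP26A1 probes in every alternative run. Scaling by library totals alone gave 339 probes called between the arms, 48 of them higher in CEPT EB, against 205 with 92 higher; it turned CYP26A1 probe 153 to -0.084 (edgeR adjusted p = 0.88) and brought probe 1174 past the threshold in ectoderm against endoderm (0.81) and in endoderm against mesoderm (-0.77). CYP26A1 in Y27 EB against ectoderm lost its call at probe 154 with DESeq2's size factors (1.25), without the shallow library (1.24), in a fit of the 2 groups (1.08) and with the replicate block (0.98), and at probe 155 in the fit of the 2 groups (1.69) and with the block (1.56); with the block, CEPT EB against ectoderm fell to 1.43 at probe 154 and 2.13 at probe 155, past neither threshold. The cause was not tested. The numbers share no stated origin and did not pair the EB arms. There 3 of 16 same-numbered pairs correlated over 0.1 (lowest -0.28), and 1 of 16 best with its own number. Pairing of EB with ectoderm libraries was not tested. In ectoderm and endoderm 4 of 4 did correlate best with their own number. For ectoderm and mesoderm, and for endoderm and mesoderm, 2 of 4 did so.

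Leaving out 1 library at a time gave 1.15 to 1.84 for probe 154 and 1.62 to 2.55 for probe 155 in Y27 EB against ectoderm, with the call lost at probe 154 without any of Y27 EB replicates 6, 10, 12, 13 or 15 or ectoderm replicates 1, 2 or 3, and at probe 155 without ectoderm replicates 1 or 2. Probe 153 in CEPT EB against ectoderm ranged from 0.90 to 1.84. Fitted values of probe 1173, from groups at or under 3 reads in each library, ranged from 2.71 to 3.60 for ectoderm against mesoderm and from 1.11 to 3.17 for ectoderm against endoderm; no call is drawn from them. Probe 1174 ranged from -0.11 (without ectoderm replicate 3) to 0.46 for ectoderm against mesoderm and from -0.30 to 0.057 (without mesoderm replicate 3) for endoderm against mesoderm.

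Fewer features were tested, and fewer called, with at least 10 reads in every library (402, 409 and 399 for ectoderm against endoderm, ectoderm against mesoderm and endoderm against mesoderm; 343 and 374 for CEPT EB and 332 and 365 for Y27 EB against ectoderm and endoderm), where most member probes dropped out and gave no value, and with probes summed per gene (112 between the arms; 335, 339, 322, 325, 351, 314 and 345 in the same order).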
